A study of Mus musculus with 9 samples.

Results

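The 3 livers of the acetaminophen (APAP) group of a mouse study were compared with one another, to find the genes and functions that differed most between animals given the same drug. They are 3 of 9 livers in the series, the ones that the labels call APAP, and no measured value was used to choose them. The other 6 livers are 3 given vehicle and 3 given LRH1 with APAP (LRH1+APAP), and here they serve as a measure of how far livers of a group usually differ. All 9 came from Balb/c mice aged 9 weeks, and the labels state no altered allele in any group. LRH1 is a nuclear receptor of hepatocytes, and its gene is Nr5a2. The sources used here do not give dose, route, time of collection, sex or how LRH1 was supplied. The labels number the livers but do not say whether animals shared a cage or a day, so p-values measure only the spread between these samples. RNA was sequenced from whole liver, so fewer cells of a type and less RNA per cell cannot be told apart.

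Acetaminophen is turned by cytochrome P450 enzymes of hepatocytes around the central vein into a reactive metabolite, which depletes glutathione, damages mitochondria and kills these cells. Surviving hepatocytes then show stress signalling, changes of the cytoskeleton and loss of metabolic functions, while neutrophils and later monocytes enter and clear the dead tissue. The extent of such injury is known to vary between mice of a treatment group.

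Hepatocyte genes were abundant in each APAP liver. Alb, serum albumin, was listed at 29110, 29870 and 30350 FPKM (fragments per kilobase of transcript scaled to the number of mapped fragments) in APAP livers 1, 2 and 3, the order used for all values of APAP livers that follow. Summed FPKM was 520072 to 575365 over the 9 livers, and 10926, 11178 and 11207 genes were above 1 FPKM in APAP livers 1, 2 and 3. Read counts were not used here and the sequencing depth is unknown.

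APAP livers differed from one another more than livers of the other groups did. The SD of log2(FPKM + 1) over 3 livers had a median over 12202 genes of 0.177 in the APAP group, against 0.0853 in vehicle and 0.087 in LRH1+APAP livers. The APAP group had the largest of the 3 SDs in 8334 genes (68.3 percent), vehicle in 1987 and LRH1+APAP in 1881. An SD of at least 1 was found in 144 genes among APAP livers (1.18 percent), in 25 among vehicle livers (0.205 percent) and in 25 among LRH1+APAP livers (0.205 percent).

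**Figure D1:**
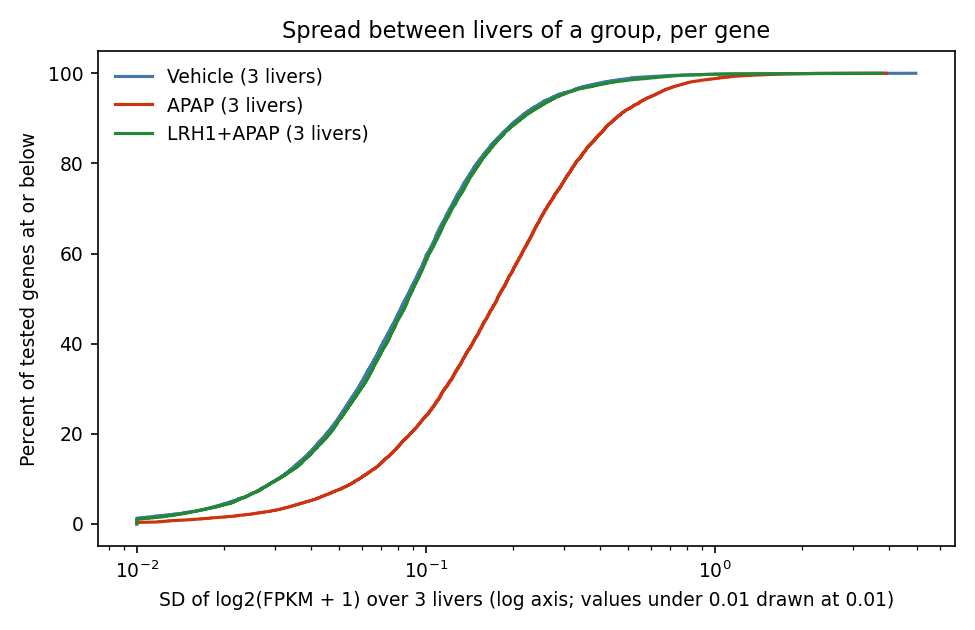
Share of the 12202 tested genes, in percent, at or below each SD of log2(FPKM + 1) over the 3 livers of a group (log axis, with values under 0.01 drawn at 0.01). The APAP curve lies to the right of the vehicle and LRH1+APAP curves, which overlap, with medians of 0.177, 0.0853 and 0.087.

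A moderated F-test with limma asked whether the APAP livers differed by more than livers of the other groups vary. Each APAP liver had its own coefficient, was taken to vary like the livers of the other groups, and the residual came from the vehicle and LRH1+APAP livers. At a Benjamini-Hochberg adjusted p under 0.05, 2537 of 12202 genes passed (20.8 percent), and these are the genes said to pass below. This 20.8 percent is the share to set beside the count that passed in each list. With the residual from vehicle livers alone 1485 passed (12.2 percent), with that from LRH1+APAP livers alone 1415 (11.6 percent), and 942 passed all 3 versions. The same kind of test found 6 genes (0.0492 percent; 594 at an unadjusted p under 0.05) among vehicle livers with LRH1+APAP livers as reference, and 5 (0.041 percent; 719 unadjusted) among LRH1+APAP livers with vehicle as reference. Without APAP liver 1, 2 or 3, which leaves a comparison of the other pair, 318, 899 and 3461 genes passed.

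Livers 1 and 2 stood at the ends of most differences, with liver 3 between them. The root mean square log2 difference over genes was 0.555 between APAP livers 1 and 2, 0.386 between 1 and 3, and 0.358 between 2 and 3. Pairs of vehicle livers differed by 0.244 to 0.265 on this measure, and pairs of LRH1+APAP livers by 0.231 to 0.264. In liver 2 against liver 1, limma called 2186 genes higher (17.9 percent of genes tested) and 1278 lower (10.5 percent). In liver 3 against liver 1, 631 were higher (5.17 percent) and 279 lower (2.29 percent). In liver 3 against liver 2, 111 were higher (0.91 percent) and 207 lower (1.7 percent).

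The balance of higher and lower genes depended on scaling. In liver 2 against liver 1, 63.1 percent of called genes were higher as deposited, 52.5 percent after upper-quartile scaling and 48.2 percent after quantile normalization. In liver 3 against liver 1 the shares were 69.3, 55.6 and 50.8 percent.

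Of the 2537 genes that passed, 1353 were highest in liver 2 and lowest in liver 1 (53.3 percent, against 33.8 percent of all genes tested). The reverse, highest in liver 1 and lowest in liver 2, held for 716 (28.2 percent, against 24.2 percent). Livers 1, 2 and 3 were highest in 31.1, 55.4 and 13.5 percent of the genes that passed, the shares to set beside the tallies by list below. Liver 1 was the APAP liver nearest to the vehicle mean in 2194 of the 2537 genes (86.5 percent, against 64.7 percent of all genes) and nearest to the LRH1+APAP mean in 1741 (68.6 percent, against 50.7 percent). Over all genes liver 1 differed from LRH1+APAP livers 1 to 3 by root mean square log2 values of 0.35, 0.392 and 0.402, and from APAP liver 3 by 0.386. Liver 2 differed from the LRH1+APAP livers by 0.602 to 0.64.

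**Figure D2:**
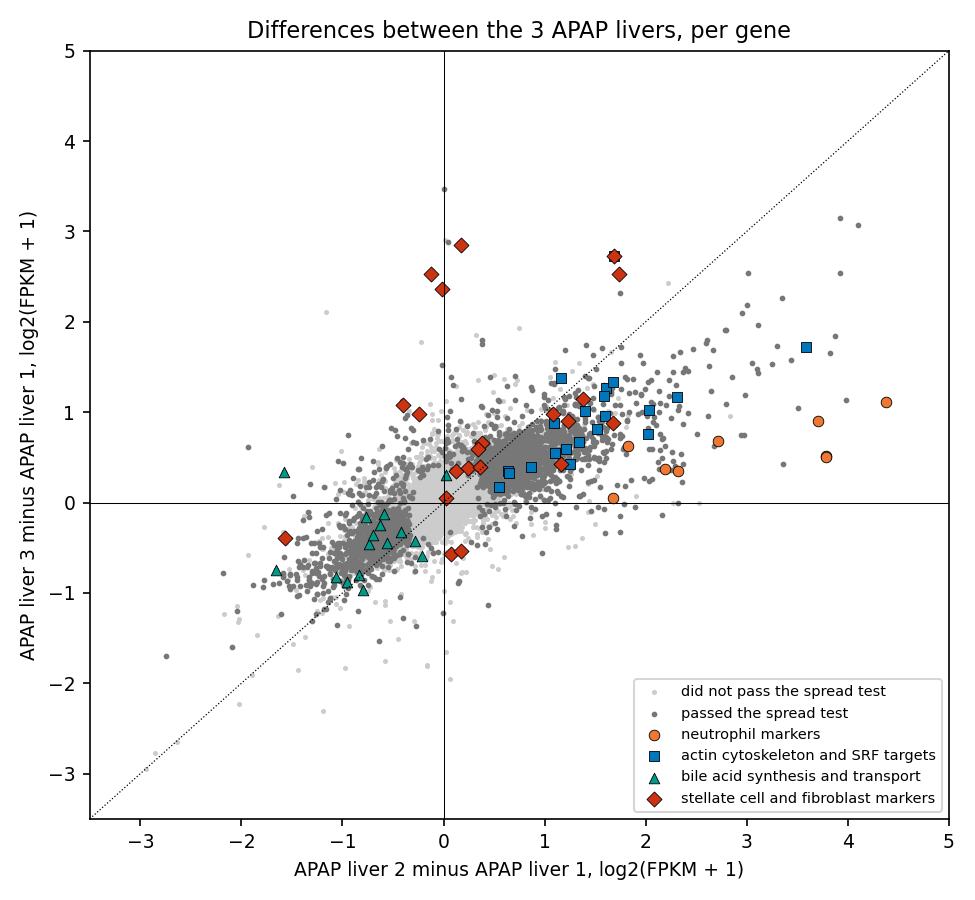
Difference of APAP liver 2 from liver 1 (horizontal) and of liver 3 from liver 1 (vertical) in log2(FPKM + 1), with a point per gene, 4 gene lists in colour and a dotted line where livers 2 and 3 are equal. Neutrophil markers lie far to the right and low, Col1a1 and other collagen genes lie high near the vertical axis, and 3 genes (Serpina3c, Atp6v0c and Atp6v0c-ps2) lie outside the axes.

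Among the genes with the largest SDs were those of neutrophils, injured epithelium and signalling scaffolds. Retnlg, a resistin-like protein of neutrophils, was listed at 1.68, 54.8 and 4.77 FPKM (SD 2.28, limma adjusted p = 0.000581). Ly6d, a surface protein of lymphoid and epithelial cells, was listed at 5.95, 118 and 57.5 FPKM (SD 2.13, adjusted p = 0.00077). Lcn2, lipocalin 2, an iron-sequestering protein of neutrophils and injured hepatocytes, was listed at 20.5, 325 and 190.0 FPKM (SD 2.08, adjusted p = 0.028). Liver 2 was the highest and liver 1 the lowest for these genes, with liver 3 closer to liver 1 for Retnlg and closer to liver 2 for the others on the log scale. Lcn2 also varied among vehicle (SD 0.642) and LRH1+APAP livers (SD 0.85), and its call was lost in 7 of 23 alternative settings. The same order of livers held for Akap12, a scaffold of protein kinase A, at 4.71, 64.0 and 10.8 FPKM (adjusted p = 0.000107). It held for Ch25h, cholesterol 25-hydroxylase, at 0.916, 19.8 and 4.70 FPKM (adjusted p = 0.000107). It also held for the mitochondrial carrier gene Slc25a30, at 17.8, 191 and 89.5 FPKM (adjusted p = 0.00223).

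Most genes of the actin cytoskeleton list differed among the APAP livers. Serum response factor (SRF) switches on actin and actin-binding proteins when free actin is used up, and binds a DNA motif called the CArG box. Actg1, cytoplasmic gamma actin (chromosome 11, 120345687 to 120348495, mm10), was listed at 56.1, 683 and 187 FPKM in the APAP livers, at 16.8 to 18.1 FPKM in vehicle and at 45.5 to 56.0 FPKM in LRH1+APAP livers. Liver 1 lay just above the LRH1+APAP range, and livers 3 and 2 far above it. Liver 2 exceeded liver 1 by 3.58 ± 0.14 (log2, limma SE; adjusted p = 4.77e-05), and liver 3 exceeded liver 1 by 1.72 (adjusted p = 0.00433). Actb, beta actin, was listed at 191, 953 and 429 FPKM (SD 1.16, adjusted p = 0.000111), in the same order. The spread calls of Actg1 and Actb held in each of 23 alternative settings.

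Of 21 tested genes in the list of actin cytoskeleton and SRF targets 19 passed, against 20.8 percent of all genes. Their median SD was 0.741 among APAP, 0.0833 among vehicle and 0.13 among LRH1+APAP livers. Liver 2 was highest in 18 of the 19 and liver 1 lowest in 19. The median log2 difference from liver 1 over the 21 genes was 1.40 in liver 2 and 0.88 in liver 3. Those that passed include Srf itself, the tropomyosins Tpm1, Tpm3 and Tpm4, which stabilize filaments, the cross-linkers Actn1, Actn4 and Flna, and the adhesion proteins Vcl, Zyx and Tln1. Without APAP liver 1, 2 or 3, 8, 12 and 19 of the list passed. Acta2, the smooth muscle actin of activated stellate cells, was listed at 2.40, 9.93 and 21.5 FPKM and did not pass (limma adjusted p = 0.0579).

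Promoters of 3 of these genes are shown because the list is built around SRF and each holds a CArG box. They are RefSeq sequences on GRCm38.p6, from 250 bases before to 50 bases after the start, written 5′ to 3′ on the gene's strand, with matches to the CArG box in capitals. The Actg1 promoter lies at chr11:120348446-120348745 (minus strand), that of Vcl at chr14:20929148-20929447 (plus strand) and that of Srf at chr17:46556113-46556412 (minus strand).
Actg1: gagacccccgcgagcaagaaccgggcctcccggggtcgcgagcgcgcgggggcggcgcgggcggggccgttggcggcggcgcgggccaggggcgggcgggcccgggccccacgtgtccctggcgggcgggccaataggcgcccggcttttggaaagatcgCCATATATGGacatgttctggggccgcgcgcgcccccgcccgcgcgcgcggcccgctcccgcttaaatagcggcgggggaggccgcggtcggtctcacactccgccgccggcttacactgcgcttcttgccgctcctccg
Vcl: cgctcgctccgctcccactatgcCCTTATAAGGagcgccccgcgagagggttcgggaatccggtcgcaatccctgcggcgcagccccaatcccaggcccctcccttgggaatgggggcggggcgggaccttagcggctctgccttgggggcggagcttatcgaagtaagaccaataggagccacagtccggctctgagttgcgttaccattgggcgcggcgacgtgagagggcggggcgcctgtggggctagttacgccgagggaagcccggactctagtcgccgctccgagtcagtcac
Srf: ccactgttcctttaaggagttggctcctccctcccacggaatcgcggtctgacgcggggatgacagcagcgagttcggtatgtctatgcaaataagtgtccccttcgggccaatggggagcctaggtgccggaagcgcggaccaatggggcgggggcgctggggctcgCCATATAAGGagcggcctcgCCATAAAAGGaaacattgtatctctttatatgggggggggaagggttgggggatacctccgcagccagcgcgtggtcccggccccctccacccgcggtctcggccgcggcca
The box was present in 7 of 21 promoters of list members (33.3 percent), against 153 of 11808 promoters of all tested genes (1.3 percent). The 21 promoters belong to 19 genes, and the matches lie in Fhl2, Myl9, Cnn2, Actg1, Vcl and Srf, of which Myl9 did not pass. The list was drawn up to hold SRF targets, so its share says nothing about the spread among livers. It was present in 48 of 2454 promoters of genes that passed (1.96 percent), and in 29 of 1391 promoters of those with liver 2 highest (2.08 percent). Both strands were searched. The matches are a description of letters, and no binding was measured.

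Keratins, annexins and other injury genes had the same order of livers. Krt18, a keratin of the hepatocyte cytoskeleton, was listed at 177, 1532 and 494 FPKM in the APAP livers, at 50.3 to 63.8 FPKM in vehicle and at 174 to 236 FPKM in LRH1+APAP livers. Liver 1 lay within the LRH1+APAP range, and livers 2 and 3 lay above it. Liver 2 exceeded liver 1 by 3.10 ± 0.23 (log2, limma SE; adjusted p = 0.000488), and liver 3 exceeded liver 1 by 1.47 (adjusted p = 0.0201). Of 21 tested genes in the list, which also holds Lcn2 and S100a8, 14 passed (66.7 percent, against 20.8 percent of all genes). The list's median SD was 0.745, 0.182 and 0.282 in APAP, vehicle and LRH1+APAP livers. Liver 2 was highest in 13 of the 14, and liver 1 was lowest in 14. Tnfrsf12a, the receptor of the cytokine TWEAK, was listed at 107, 338 and 215 FPKM (adjusted p = 0.00837). Sprr1a, a cornified envelope protein that injured cells also make, was listed at 78.5, 169 and 197 FPKM and passed with liver 3 highest (adjusted p = 0.0377). The count was 3, 8 and 15 without APAP liver 1, 2 or 3.

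Targets of YAP, the coactivator that the Hippo pathway restrains, differed in part. Ctgf, a matricellular protein, was listed at 12.7, 206 and 78.3 FPKM in the APAP livers and at 8.89 to 13.9 FPKM in the 6 reference livers. Liver 1 lay inside the range of the reference livers, and livers 2 and 3 far above it. Liver 2 exceeded liver 1 by 3.92 ± 0.30 (log2, limma SE; adjusted p = 0.00052), and liver 3 exceeded liver 1 by 2.54 (adjusted p = 0.00979). Ankrd1, a nuclear ankyrin repeat protein, was listed at 1.66, 20.5 and 14.5 FPKM (adjusted p = 0.000107). Ajuba, a LIM protein that inhibits Hippo kinases, was listed at 0.895, 13.6 and 7.12 FPKM (adjusted p = 0.000292). Of 15 tested targets 6 passed (40 percent, against 20.8 percent of all genes), each with liver 2 highest and liver 1 lowest. Amotl2, an adaptor of the pathway, was listed at 11.3, 14.9 and 14.01 FPKM and did not pass (adjusted p = 0.445). Leaving out APAP liver 1, 2 or 3 gave counts of 2, 4 and 8.

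Tubulins, the subunits of microtubules, were also ordered this way. Of 10 tested 7 passed (70 percent, against 20.8 percent of all genes), 6 of them with liver 2 highest. Tubb6 was listed at 19.9, 85.7 and 52.4 FPKM (limma adjusted p = 0.00682) and Tubb2a at 181, 433 and 338 FPKM (adjusted p = 0.00998). Liver 1 was lowest for both. Without APAP liver 1, 2 or 3, 0, 4 and 8 passed, and without vehicle liver 2 the count was 4.

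**Figure D3:**
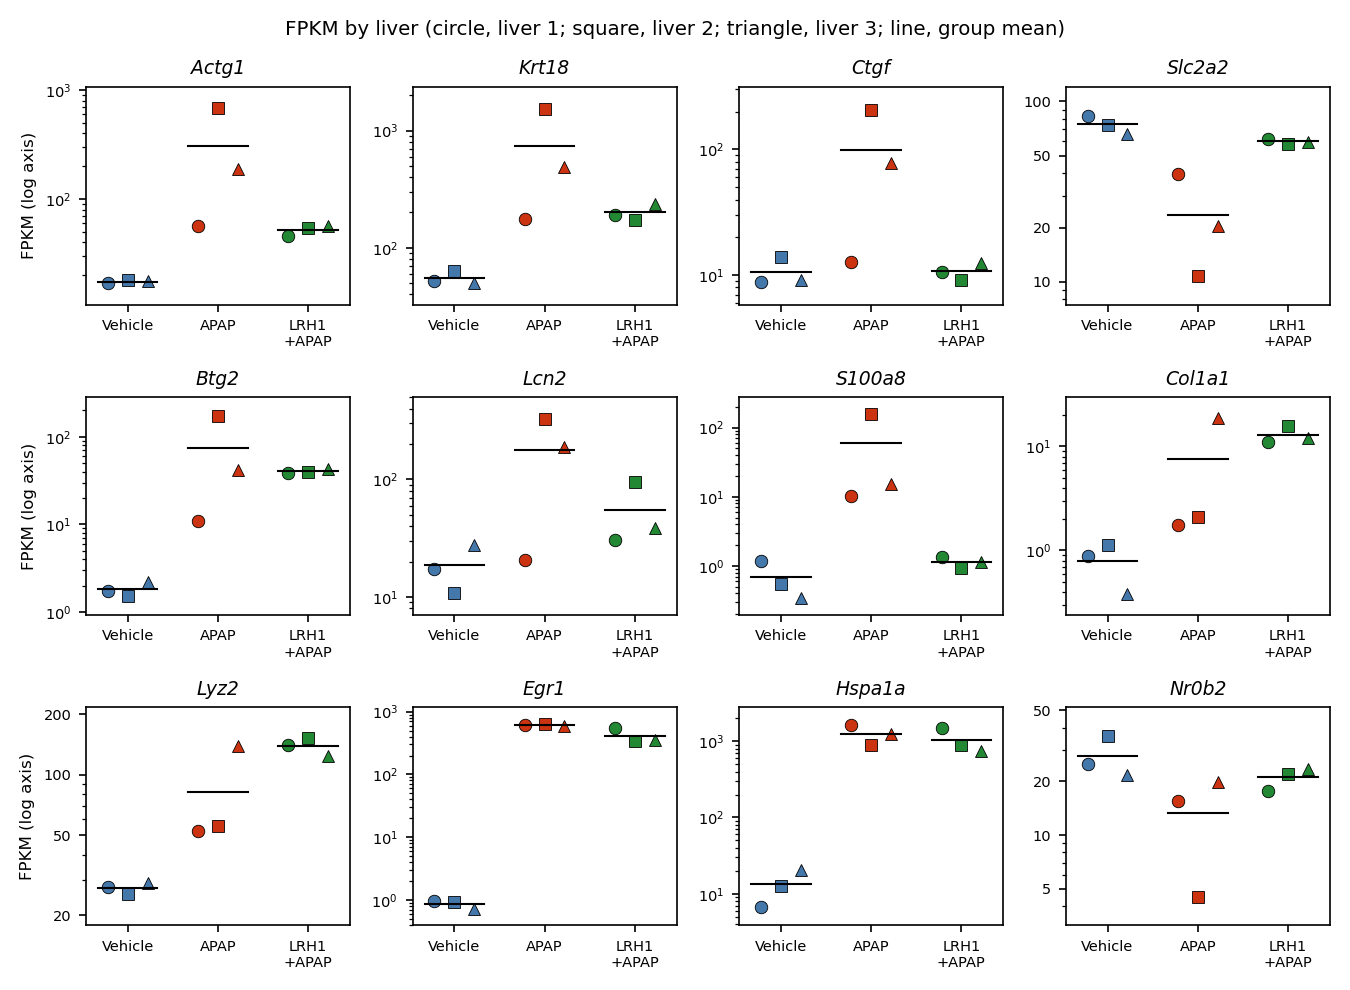
FPKM of 12 genes in each of the 9 livers, on log axes, with a circle, square and triangle for livers 1, 2 and 3 of a group and a line at the group mean. Actg1, Krt18, Ctgf, Btg2, Lcn2 and S100a8 are highest in APAP liver 2 and Col1a1 and Lyz2 in APAP liver 3 among the APAP livers. Egr1 is near level among them, and Slc2a2 and Nr0b2 are lowest in APAP liver 2.

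Immediate early genes, which respond within minutes to stress and growth signals, split into some that were level among APAP livers and some that differed. Egr1, a zinc finger transcription factor, was listed at 603, 642 and 600.0 FPKM (SD 0.054, limma adjusted p = 0.955). Jun, a subunit of AP-1, was listed at 993, 836 and 902 FPKM (SD 0.124, adjusted p = 0.894). Neither passed, and both varied more among LRH1+APAP livers, with SDs of 0.356 and 0.449. By contrast Fosl1, another AP-1 subunit, was listed at 0.832, 17.1 and 5.10 FPKM (adjusted p = 0.00085). Ier3, which modulates cell survival, was listed at 1.79, 43.0 and 5.11 FPKM (adjusted p = 7.72e-05). Btg2, an antiproliferative gene and p53 target, was listed at 10.9, 172 and 41.4 FPKM (adjusted p = 0.000107). Liver 2 was the highest and liver 1 the lowest for these, and for Btg2 the LRH1+APAP livers, at 39.1 to 42.5 FPKM, lay near liver 3.

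Of 22 tested genes in the list 12 passed (54.5 percent, against 20.8 percent of all genes), each with liver 2 highest and liver 1 lowest. The list's median SD was 0.538, 0.0969 and 0.193 in APAP, vehicle and LRH1+APAP livers. Myc, a growth-promoting transcription factor, was listed at 15.6, 40.6 and 24.0 FPKM (limma adjusted p = 0.0306), a call lost in 10 of 23 alternative settings. Atf3, a stress-induced transcription factor, was listed at 312, 462 and 474 FPKM and did not pass (adjusted p = 0.0626). The count was 6, 6 and 16 without APAP liver 1, 2 or 3.

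Many genes of growth signalling and its feedback had this order too. Of 20 tested genes of JNK and MAP kinase feedback 8 passed (40 percent, against 20.8 percent of all genes). Each was highest in liver 2 and lowest in liver 1, and 2, 3 and 13 passed without APAP liver 1, 2 or 3. The 8 are the phosphatase genes Dusp1, Dusp4, Dusp5, Dusp6, Dusp8 and Dusp16, whose products switch MAP kinases off, and the Sprouty genes Spry2 and Spry4. Dusp5 was listed at 8.19, 49.9 and 28.8 FPKM (limma adjusted p = 0.00083), while Mapk9, a JNK kinase, was level at 10.1, 9.82 and 9.74 FPKM (adjusted p = 0.958). Of 19 tested genes of growth factor signalling 12 passed (63.2 percent), 10 with liver 2 highest and liver 1 lowest. The other 2, the receptor genes Fgfr4 and Klb, had liver 1 highest and liver 2 lowest. Without APAP liver 1, 2 or 3, 4, 6 and 13 passed. Hbegf, a ligand of the EGF receptor, was listed at 1.24, 16.7 and 2.76 FPKM (adjusted p = 0.000107). Btc, another such ligand, was listed at 2.98, 12.9 and 4.78 FPKM (adjusted p = 0.00213). Met, the receptor of hepatocyte growth factor, was level at 13.1, 13.0 and 12.5 FPKM (adjusted p = 0.946).

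Of 18 tested hypoxia targets 8 passed (44.4 percent, against 20.8 percent of all genes), 7 with liver 2 highest. Without APAP liver 1, 2 or 3, 3, 2 and 9 passed. Slc2a1, the widespread glucose transporter GLUT1, was listed at 7.94, 41.8 and 12.2 FPKM (limma adjusted p = 0.00123). Vegfa, the vascular growth factor, was level at 64.5, 66.1 and 66.8 FPKM (adjusted p = 0.972). Of 18 tested p53 targets, a list that also holds Btg2, 9 passed (50 percent). Liver 2 was highest in 6 of the 9, against 55.4 percent of all genes that passed. The p53 count was 3, 3 and 9 without APAP liver 1, 2 or 3, and 4 and 5 with vehicle or LRH1+APAP livers alone as residual.

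Ribosome biogenesis genes differed by less. Of 20 tested 10 passed (50 percent, against 20.8 percent of all genes), each highest in liver 2 and lowest in liver 1. But 2 did so with each reference group alone. Leaving out APAP liver 1, 2 or 3 gave counts of 0, 4 and 14, and the count was 5 without LRH1+APAP liver 1 and 6 without vehicle liver 1 or vehicle liver 2. Nop58, a core protein of small nucleolar particles, was listed at 28.1, 64.8 and 49.5 FPKM (limma adjusted p = 0.00438). Of 22 tested ribosomal proteins 1 passed, Rpl3, at 159.9, 221 and 226 FPKM (adjusted p = 0.0191), and their median SD among APAP livers was 0.0654. Of 24 tested proteasome genes 0 passed in limma, with 1 at an unadjusted p under 0.05. Their median SD was 0.0577, 0.0667 and 0.0496 in APAP, vehicle and LRH1+APAP livers.

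Few heat shock genes differed, and the share of oxidative stress and endoplasmic reticulum stress genes that passed was near that of all genes. Hspa1a, the inducible HSP70 chaperone, was listed at 1623, 882 and 1242 FPKM in APAP livers and at 734 to 1477 FPKM in LRH1+APAP livers. APAP liver 1 was the highest of these, and the ranges of the APAP and LRH1+APAP groups overlapped (SD 0.441 and 0.523; limma adjusted p = 0.603). Of 20 tested heat shock chaperones 1 passed, the small heat shock protein Cryab, at 2.46, 7.52 and 6.37 FPKM (adjusted p = 0.0115). The list's median SD was 0.179 among APAP against 0.208 among LRH1+APAP livers.

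Of 22 tested NRF2 and glutathione genes, which protect against reactive metabolites, 6 passed (27.3 percent, against 20.8 percent of all genes), 5 with liver 2 highest and 5 with liver 1 lowest, and without APAP liver 1 the count was 1. Srxn1, sulfiredoxin, was listed at 195, 617 and 448 FPKM (limma adjusted p = 0.00511), highest in liver 2. Hmox1, heme oxygenase, was listed at 194, 293 and 213 FPKM and did not pass (adjusted p = 0.219). Gclc, which catalyses the first step of glutathione synthesis, was listed at 283, 391 and 349.9 FPKM and did not pass (adjusted p = 0.359). Of 26 tested members of the list of integrated stress and unfolded proteins 6 passed (23.1 percent), 4 with liver 2 highest and 5 with liver 1 lowest, and 0, 3 and 6 passed without APAP liver 1, 2 or 3. The 5 with liver 1 lowest are Ppp1r15a, Psat1, Slc7a11, Slc7a5 and Xbp1. The remaining member that passed, Herpud1, which acts in degradation of proteins of the endoplasmic reticulum, was listed at 326, 128 and 202 FPKM, lowest in liver 2 (adjusted p = 0.00334). Ddit3, the transcription factor CHOP, was listed at 158, 209 and 283 FPKM and did not pass (adjusted p = 0.317).

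**Figure D4:**
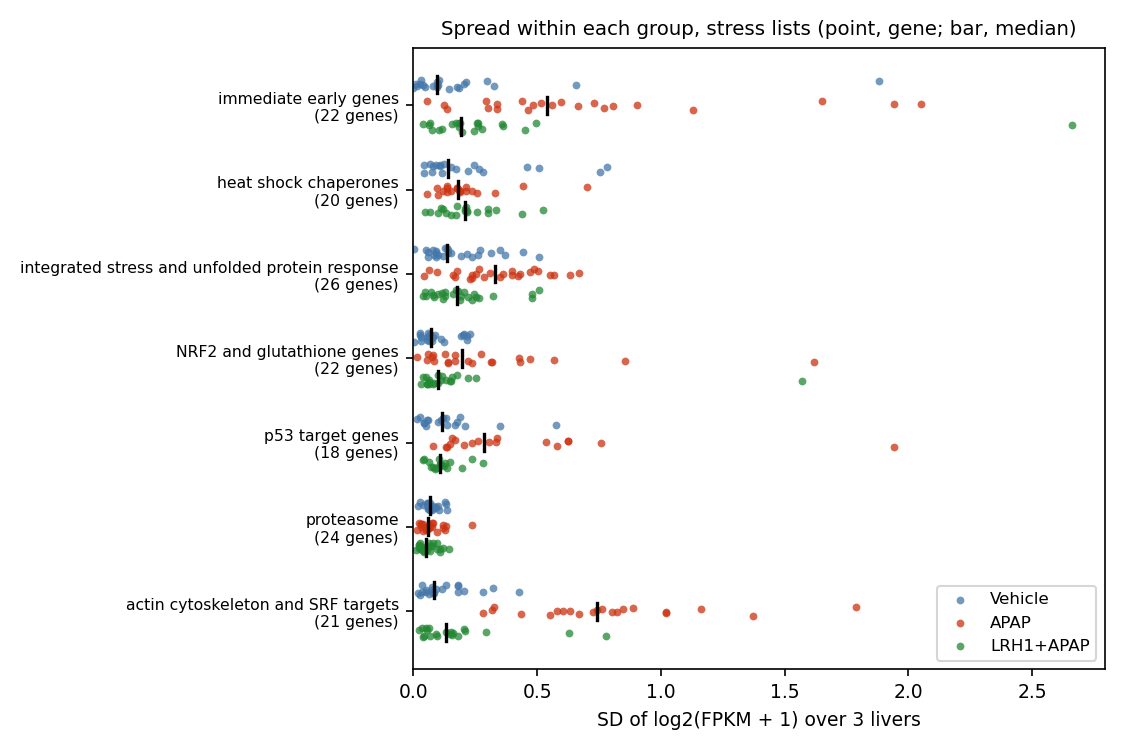
SD of log2(FPKM + 1) over the 3 livers of each group (horizontal axis) for the tested genes of 7 lists, with a point per gene and a bar at the median. The APAP medians stand far above both references for actin cytoskeleton and SRF targets (0.741) and immediate early genes (0.538), and near them for heat shock chaperones (0.179) and the proteasome (0.0577).

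Several hepatocyte functions, among them glucose, bile acid and amino acid metabolism and conjugation, had more of their called genes highest in liver 1 than in liver 2. Other hepatocyte lists did not. Of 24 tested acute phase proteins 4 passed (16.7 percent, against 20.8 percent of all genes), 3 with liver 2 highest. Of 21 tested secreted proteins 0 passed in limma, with 4 at an unadjusted p under 0.05. Leaving out APAP liver 1, 2 or 3 gave counts of 2, 1 and 6 for the acute phase proteins. Slc2a2, the hepatocyte glucose transporter GLUT2, was listed at 39.7, 10.8 and 20.3 FPKM in APAP livers, at 66.2 to 83.4 FPKM in vehicle and at 58.1 to 62.3 FPKM in LRH1+APAP livers. The APAP livers lay below both reference ranges, with liver 2 the lowest. The difference of liver 2 from liver 1 was -1.79 ± 0.15 (log2, limma SE; adjusted p = 0.000656), and the spread call held in each of 23 alternative settings. Pck1, the rate-limiting enzyme of gluconeogenesis, was listed at 655, 291 and 597 FPKM (adjusted p = 0.0121). Livers 1 and 3 were close to each other here, and liver 2 stood below them.

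Of 18 tested genes of gluconeogenesis, glycolysis and glycogen 11 passed (61.1 percent, against 20.8 percent of all genes), 8 with liver 1 highest. Without APAP liver 1, 2 or 3, 3, 5 and 10 passed. The 3 with liver 2 highest were Slc2a1, Pfkfb3, which drives glycolysis, and the pyruvate kinase gene Pkm. Pkm was listed at 15.9, 50.7 and 29.0 FPKM (limma adjusted p = 0.0128).

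Bile acid genes were mostly ordered like Slc2a2. Of 16 tested 9 passed (56.2 percent, against 20.8 percent of all genes), 8 with liver 1 highest and 8 with liver 2 lowest. The median log2 difference of liver 2 from liver 1 was -0.72. Those that passed include the synthesis enzymes Cyp8b1 and Akr1d1, Baat, which conjugates bile acids, and Slc10a1, which takes them up. Nr1h4, the bile acid receptor FXR, was listed at 64.7, 19.9 and 38.3 FPKM (limma adjusted p = 0.0435), a call lost in 11 of 23 alternative settings. Nr0b2, the repressor SHP that FXR and LRH1 induce, was listed at 15.5, 4.51 and 19.9 FPKM (adjusted p = 0.0143). Liver 2 stood alone at the low end for Nr0b2, and liver 3 lay within the LRH1+APAP range of 17.8 to 23.4 FPKM. Cyp7a1, which sets the rate of bile acid synthesis, was listed at 2.21, 1.77 and 1.13 FPKM and varied more among vehicle (SD 0.665) and LRH1+APAP livers (SD 0.678) than among APAP livers (SD 0.299; adjusted p = 0.799). Without APAP liver 1, 2 or 3, 2, 2 and 13 of the list passed.

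Of 24 tested hepatocyte transcription factors 8 passed (33.3 percent, against 20.8 percent of all genes), 8 with liver 2 lowest and 7 with liver 1 highest. Without APAP liver 1, 2 or 3, 2, 1 and 9 passed. Klf15, a regulator of amino acid and glucose metabolism, was listed at 29.7, 10.3 and 18.6 FPKM (limma adjusted p = 0.00972). Ppara, the fatty acid receptor, was listed at 35.5, 15.6 and 32.5 FPKM (adjusted p = 0.00564). Hnf4a, a central regulator of hepatocyte genes, was near level at 139, 128 and 136 FPKM (adjusted p = 0.805). Nr5a2, which encodes LRH1, was near level too, at 10.8, 9.29 and 10.3 FPKM (adjusted p = 0.948).

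Of 28 tested conjugation enzymes and transporters, which clear drugs and their products, 13 passed (46.4 percent), 12 with liver 1 highest. Without APAP liver 1, 2 or 3, 1, 4 and 15 passed. With vehicle or LRH1+APAP livers alone as residual the count was 5 and 10. Slco1b2, a drug and bile acid uptake transporter, was listed at 180.4, 92.2 and 88.6 FPKM (limma adjusted p = 0.00199), with livers 2 and 3 close to each other. Of 26 tested genes of urea production and amino acid breakdown 10 passed (38.5 percent), 9 with liver 1 highest. With vehicle or LRH1+APAP livers alone as residual 8 and 4 passed. The count was 2, 5 and 13 without APAP liver 1, 2 or 3, and without vehicle liver 2 the count was 6. Hal, histidine ammonia-lyase, was listed at 37.6, 13.3 and 28.4 FPKM (adjusted p = 0.00364). Of 20 tested heme and iron genes 6 passed (30 percent, against 20.8 percent of all genes), each highest in liver 1 and lowest in liver 2. With the residual from vehicle livers alone 2 of the 20 passed, against 12.2 percent of all genes. With that from LRH1+APAP livers alone 2 passed, against 11.6 percent. Leaving out APAP liver 1, 2 or 3 gave counts of 0, 0 and 7, and without vehicle liver 2 the count was 3. Alas1, the first enzyme of heme synthesis, was listed at 292, 142 and 245 FPKM (adjusted p = 0.0287), a call lost in 8 of 23 alternative settings.

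Among the cytochrome P450 genes that activate acetaminophen, Cyp1a2 passed and Cyp2e1 did not. Cyp2e1, the main activating enzyme, was listed at 2455, 1850 and 1723 FPKM (SD 0.27, limma adjusted p = 0.0695). It passed in 3 of 23 alternative settings. Cyp1a2, which also oxidizes the drug, was listed at 114, 69.4 and 76.3 FPKM (adjusted p = 0.0115), a call lost in 2 of 23 alternative settings. Liver 1 was the highest for both. Of 30 tested P450 genes 6 passed (20 percent, near the 20.8 percent of all genes), each highest in liver 1 and lowest in liver 2, and 0, 3 and 9 passed without APAP liver 1, 2 or 3. Of 18 tested genes of pericentral hepatocytes 3 passed (16.7 percent), and the count was 6 after quantile normalization. Without APAP liver 1, 2 or 3, 1, 1 and 8 of these passed. Their order was more uniform than this count: liver 1 was highest in 17 of the 18, against 31.7 percent of all genes. In liver 2 against liver 1, 8 of the 18 were called lower, against 10.5 percent of all genes, and 0 higher. The median log2 difference was -0.446. Glul, the glutamine synthetase of cells next to the central vein, was listed at 33.0, 23.7 and 29.4 FPKM and did not pass (adjusted p = 0.221).

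**Figure D5:**
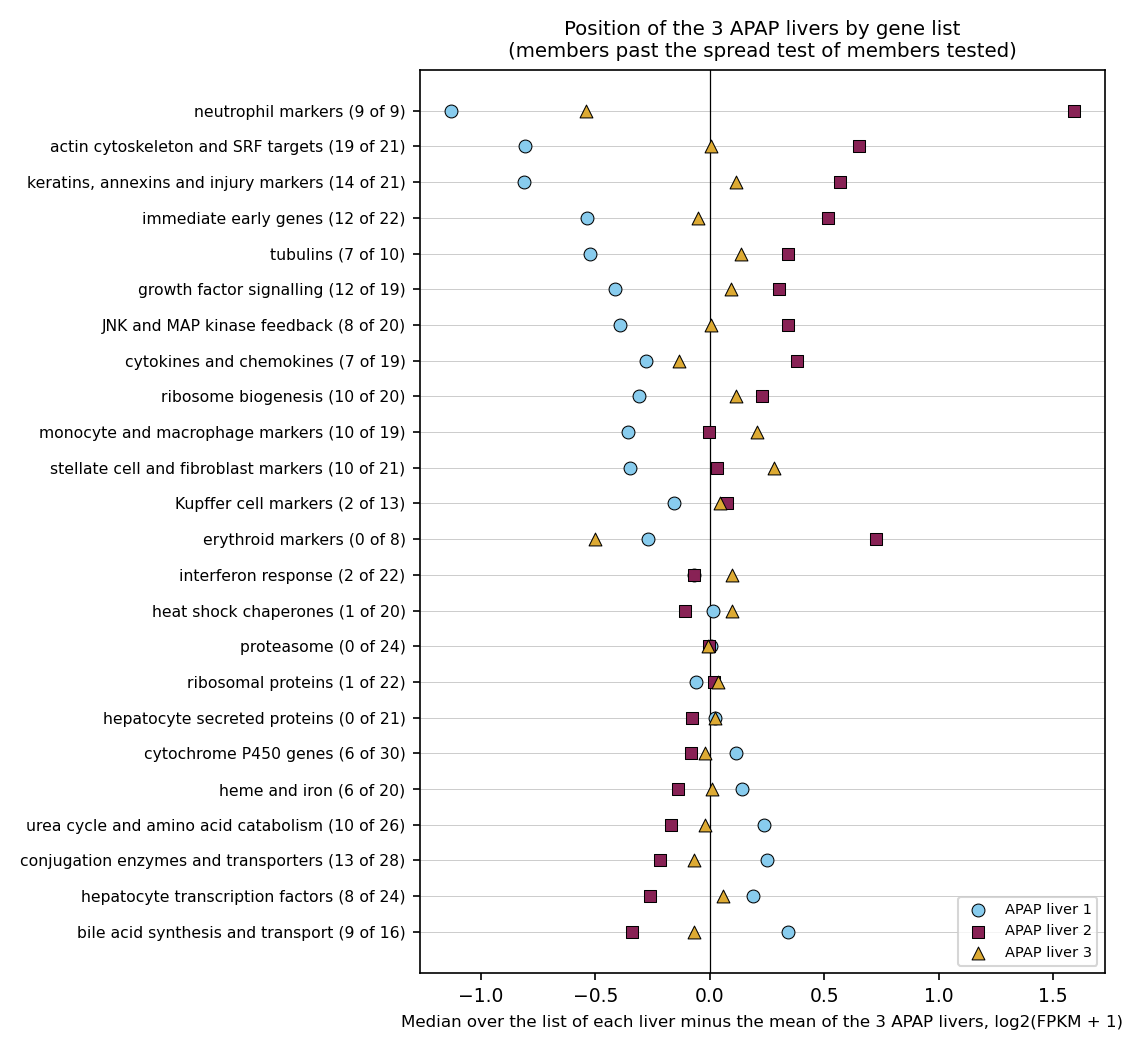
Median, over the tested members of each of 24 gene lists, of each APAP liver's log2(FPKM + 1) minus the mean of the 3 APAP livers (horizontal axis), with the members that passed of those tested in brackets. Liver 2 stands highest and liver 1 lowest for neutrophil, actin and injury lists, the order turns round for bile acid genes, and the 3 livers nearly coincide for the proteasome.

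Neutrophil genes set liver 2 apart from livers 1 and 3. S100a8, a calcium-binding alarmin of neutrophils, was listed at 10.4, 156 and 15.2 FPKM, and at 0.347 to 1.34 FPKM in the 6 reference livers. Its partner S100a9 was listed at 15.9, 232 and 22.9 FPKM, and at 0.807 to 3.21 FPKM in the reference livers. APAP livers 1 and 3 were close to each other and above every reference liver, and liver 2 was far above them. Liver 2 exceeded liver 1 in S100a8 by 3.79 ± 0.30 (log2, limma SE; adjusted p = 0.000572), while the difference of liver 3 from liver 1 was 0.51 and did not pass (adjusted p = 0.31). Mmp8, a collagenase of neutrophils, was listed at 0.334, 16.4 and 1.49 FPKM. Cxcr2, the receptor for neutrophil-attracting chemokines, was listed at 0.549, 9.19 and 1.48 FPKM.

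Of 15 listed neutrophil genes 9 reached the mean level needed for a test, and these 9 passed, each with liver 2 highest and liver 1 lowest. A gene could reach that level through liver 2 alone, so this count is a description. For the same reason no p-value is given for the low genes Mmp8 and Cxcr2. The 9 genes summed to 36.1, 513 and 56.8 FPKM in APAP livers 1, 2 and 3, to 3.01 to 3.86 FPKM in vehicle and to 7.74 to 8.76 FPKM in LRH1+APAP livers. The count was 8, 2 and 9 without APAP liver 1, 2 or 3.

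Cytokines followed in part. Of 26 listed cytokines and chemokines 19 were tested and 7 passed (36.8 percent, against 20.8 percent of all genes), each highest in liver 2. This count is a description too, because a low gene could reach the level for a test through liver 2 alone. It was 2, 1 and 9 without APAP liver 1, 2 or 3. Cxcl2, a neutrophil attractant, was listed at 2.21, 21.3 and 5.84 FPKM (limma adjusted p = 0.000581). Il1b, interleukin 1 beta, which is also in the neutrophil list, was listed at 3.31, 18.7 and 4.58 FPKM (adjusted p = 0.00135). Ccl2, a monocyte attractant, was listed at 8.26, 9.53 and 4.45 FPKM and did not pass (adjusted p = 0.063).

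Of 10 listed platelet markers 5 reached the mean level needed for a test. Of these 5, 2 passed (40 percent, against 20.8 percent of all genes), each with liver 2 highest. As with the neutrophil genes, a low gene could reach that level through liver 2 alone, so the count is a description. The summed level of red cell markers was highest in liver 2. The platelet count was 1, 0 and 3 without APAP liver 1, 2 or 3, and 1 without vehicle liver 1, vehicle liver 2 or LRH1+APAP liver 3. Ppbp, a platelet chemokine and such a low gene, was listed at 0.847, 5.19 and 0.670 FPKM. Pf4, platelet factor 4, was listed at 4.35, 15.1 and 6.82 FPKM (limma adjusted p = 0.0304), a call lost in 10 of 22 alternative settings. The 8 tested erythroid markers summed to 2669, 6553 and 1994 FPKM in APAP livers 1, 2 and 3, to 544 to 893 FPKM in vehicle and to 821 to 2174 FPKM in LRH1+APAP livers. None of the 8 passed in limma, with 2 at an unadjusted p under 0.05, and 4 passed without LRH1+APAP liver 3. The part of blood content in the neutrophil and platelet values was not tested.

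Liver 3 stood apart in genes of fibrillar collagen and in some macrophage genes. Col1a1, a chain of type I collagen, was listed at 1.75, 2.11 and 18.9 FPKM in APAP livers, at 0.380 to 1.13 FPKM in vehicle and at 11.2 to 15.8 FPKM in LRH1+APAP livers. Livers 1 and 2 were close to each other and below every LRH1+APAP liver, and liver 3 was above them all. Liver 3 exceeded liver 1 by 2.85 ± 0.32 (log2, limma SE; adjusted p = 0.00916) and liver 2 by 2.67 (adjusted p = 0.0111). The difference of liver 2 from liver 1 was 0.18 ± 0.32 (adjusted p = 0.71). Col1a2, the other chain, was listed at 3.67, 3.62 and 23.0 FPKM (adjusted p = 0.00471). Col3a1, type III collagen, was listed at 6.04, 5.48 and 39.5 FPKM (adjusted p = 0.0164), a call lost in 5 of 23 alternative settings.

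Col5a1, another fibrillar collagen, Lum, the proteoglycan lumican, and Sparc, a matrix protein of fibroblasts, also passed with liver 3 highest. The call of Lum was lost in 10 of 23 alternative settings. Sparc was listed at 17.5, 60.8 and 106 FPKM (limma adjusted p = 0.0475), with liver 2 between the others. Some other genes of stellate cells and matrix did not have liver 3 highest or did not pass. Col4a1, a basement membrane collagen, was listed at 16.0, 43.1 and 36.4 FPKM, with liver 2 highest (limma adjusted p = 0.00403). Timp3, an inhibitor of matrix proteases, was listed at 11.98, 40.6 and 23.0 FPKM, with liver 2 highest (adjusted p = 0.00471). Lrat, which stores retinol in stellate cells, was listed at 3.17, 0.409 and 2.18 FPKM, with liver 2 lowest (adjusted p = 0.00593). Dcn, the proteoglycan decorin, was level at 151, 154 and 157 FPKM (adjusted p = 0.991). Of 21 tested stellate cell and fibroblast markers 10 passed (47.6 percent, against 20.8 percent of all genes). Of these, 6 had liver 3 highest, 3 had liver 2 highest and 1, Lrat, had liver 1 highest. Leaving out APAP liver 1, 2 or 3 gave counts of 5, 8 and 4.

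Gpnmb, a glycoprotein of lipid-laden macrophages, was listed at 0.0257, 0.0580 and 6.55 FPKM in APAP livers, at 0.0105 to 0.0480 FPKM in vehicle and at 6.87 to 13.7 FPKM in LRH1+APAP livers (limma adjusted p = 0.00483). Trem2, a lipid receptor of such macrophages, was listed at 0.698, 0.685 and 3.87 FPKM, and at 4.09 to 6.07 FPKM in LRH1+APAP livers (adjusted p = 0.00643). Lyz2, the lysozyme of myeloid cells, was listed at 52.6, 55.5 and 139 FPKM, and at 123 to 152 FPKM in LRH1+APAP livers (adjusted p = 0.00296). Livers 1 and 2 had like values for each of these, and liver 3 stood within or just below the range of the LRH1+APAP livers.

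Of 19 tested monocyte and macrophage markers 10 passed (52.6 percent), 7 with liver 3 highest and 3 with liver 2 highest. The 3 are Cd14, Itgam and Spi1, of which Cd14, the lipopolysaccharide coreceptor, was listed at 7.20, 30.8 and 17.8 FPKM (limma adjusted p = 0.000656). Neutrophils express these 3 genes as well. The tested members that did not pass are Cd68, Ly6c2, Ccr2, Cx3cr1, Csf1r, Fcgr1, Ctss, Cybb and Lgals3, so only part of the list set liver 3 apart. Without APAP liver 1, 2 or 3, 5, 7 and 5 of the list passed. Of 13 tested markers of Kupffer cells, the resident macrophages, 2 passed (15.4 percent, against 20.8 percent of all genes). Without APAP liver 1, 2 or 3, 0, 0 and 2 passed. The count was 1 without vehicle liver 2, LRH1+APAP liver 2 or LRH1+APAP liver 3. Clec4f, which defines Kupffer cells, was listed at 58.3, 63.6 and 67.5 FPKM and did not pass (adjusted p = 0.504).

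Endothelial genes were divided. Cdh5, the cadherin of vessel junctions, was listed at 11.9, 36.1 and 17.2 FPKM in APAP livers and at 4.64 to 7.52 FPKM in the 6 reference livers (limma adjusted p = 0.000932). Liver 2 was the highest, and the APAP livers lay above each reference liver. Kdr, a VEGF receptor of sinusoidal cells, was listed at 11.1, 4.79 and 11.4 FPKM (adjusted p = 0.0226), a call lost in 5 of 23 alternative settings. Wnt2, a Wnt ligand that sinusoidal cells send to pericentral hepatocytes, was listed at 2.11, 0.733 and 3.04 FPKM (adjusted p = 0.0194). Liver 2 was the lowest for both. Of 22 tested endothelial markers 9 passed (40.9 percent, against 20.8 percent of all genes). Liver 2 was highest in 5 of the 9, near its 55.4 percent of all genes that passed. Liver 3 was highest in the other 4, against 13.5 percent. The count was 4, 2 and 8 without APAP liver 1, 2 or 3. It was 3 with vehicle livers alone as residual, against 12.2 percent of all genes, and 7 with LRH1+APAP livers alone, against 11.6 percent. The calls of Icam2, Clec4g and Egfl7 were lost in 14 of 22, 11 of 23 and 10 of 23 alternative settings. That of Cdh5 held in each of 23. Stab2, a scavenger receptor of sinusoidal cells, was near level at 8.95, 8.76 and 10.1 FPKM (adjusted p = 0.487).

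Some large SDs came with signs of unstable quantification. Serpina3c was listed at 1.29, 256 and 249 FPKM, and at 169.5 to 233 FPKM in the 6 reference livers (SD 3.92, limma adjusted p = 3.74e-05). It belongs to a family of closely related neighbouring genes whose reads can be shared, so its low value in APAP liver 1 is uncertain. Gpx1, glutathione peroxidase, was listed at 752, 103 and 109 FPKM in APAP livers and at 108 to 766 FPKM in LRH1+APAP livers, with 1 high liver in both of these groups, and did not pass (adjusted p = 0.174). Atp6v0c and its copy Atp6v0c-ps2 had SDs of 2.45 to 3.7 within each of the 3 groups and did not pass (adjusted p = 0.322 and 0.31).

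Some library measures moved with the order of livers and some did not. Summed FPKM was 555936, 551806 and 546381 in APAP livers 1, 2 and 3. It was lowest in liver 3, which also had the most genes above 1 FPKM. The 100 genes of highest mean in the vehicle livers held 46.99, 43.38 and 44.87 percent of summed FPKM in APAP livers 1, 2 and 3. The median difference of liver 2 from liver 1 was -0.0351 (log2) among genes in the shortest quartile of transcript length and 0.118 in the longest. That of liver 3 from liver 1 was 0.016 and 0.113. The part of these measures in the results was not tested.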

How the data were processed

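RNA-seq values of 9 mouse livers were used, 3 each from the Vehicle, APAP and LRH1+APAP groups, as grouped by the labels. The deposited file gives FPKM for 36779 transcript models, computed by the authors; tools named in the submitters' processing notes are FastQC 0.10.0, Bowtie2 2.2.6 and StringTie 1.3.3b, and the notes name the mm10 build. Read counts were not used here, so depth and counting error are unknown. FPKM was summed per gene symbol (24541 symbols), and log2(FPKM + 1) was analysed for the 12202 genes whose mean over all 9 libraries reached 0.5 FPKM. Fold changes on this scale understate those of low genes.

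The spread test was limma's moderated F-test (limma 3.58.1 in R 4.3.3), with a coefficient for each APAP liver and a mean for each other group. It has 4 residual degrees of freedom, a prior of 3.13 and an intensity trend. Pairs of APAP livers were compared in the same fit. All p-values were adjusted over all 12202 genes by the Benjamini-Hochberg method. The test was checked on simulated data with known changes. Gene lists (59, of which 58 had a tested member), the livers compared and the tests were chosen with earlier results of these data known, so no list is independent support. Genes named are the 15 of largest SD and the 5 largest differences in each direction per pair of livers, among genes of at least 5 FPKM that passed; the 3 members of largest and 2 of smallest SD in each list; a fixed panel; and cell type markers. Names of other list members are given without values. The length and abundance checks used R, and the promoter search and figures used Python 3.11.15, pandas 2.3.3 and matplotlib 3.10.9. Alternatives covered the pseudocount, filter, scaling, transcript choice, residual, replicate block and each liver left out. Leaving out short transcript models and repeated loci was chosen after seeing the data. Results that rest on some genes are not reported here.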

Additional observations from a re-analysis of the deposited data

How the results depend on the processing

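The count of genes past the spread test, 2537, was within 1.5 times under both pseudocounts, both filters, both scalings and without the intensity trend. It was 1684 with the transcript model of highest mean in place of the sum, 1485 with the residual from vehicle livers only and 1415 with that from LRH1+APAP livers only. With 1 liver left out it ranged from 318 (without APAP liver 1) to 3461 (without APAP liver 3). A test of absolute deviations from the group mean called 3081 genes wider and 55 narrower among APAP livers. The count of liver 2 against liver 1, 3464, ranged from 3051 to 3461 with 1 liver left out. The count of liver 3 against liver 1, 910, was 1649 without a filter, 502 with the transcript model of highest mean, 187 and 165 with vehicle or LRH1+APAP livers alone as residual, and 487 (without vehicle liver 2) to 899 with 1 liver left out. The count of liver 3 against liver 2, 318, was 139 and 555 with pseudocounts of 0.1 and 5, 1129 without a filter, 123 at a mean of at least 5 FPKM, 161 and 82 with vehicle or LRH1+APAP livers alone as residual, and 197 (without vehicle liver 1) to 318 with 1 liver left out. The APAP spread against vehicle alone, 1485, was 623 with a pseudocount of 0.1. The vehicle spread against LRH1+APAP, 6, was 0 after quantile normalization (578 at an unadjusted limma p under 0.05) and 3 at a mean of at least 5 FPKM, and the LRH1+APAP spread against vehicle, 5, was 3 with a pseudocount of 0.1 and 9 after quantile normalization. With the replicate number as a block, the spread count was 196 and the pair counts 879, 2 and 32. Deviations from the group mean correlated by -0.136 to 0.0682 between same-numbered livers and by -0.179 to 0.197 between others. With 3 livers per group these values cannot tell whether livers of a number shared a cage or a day. The cause of these shifts was not tested. The median difference of NRF2 and glutathione genes between livers 2 and 1 was 0.11 as deposited and -0.06 after upper-quartile scaling.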

Other observations

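Some clock output genes were lowest in liver 2. Dbp, a transcription factor that the clock drives, was listed at 37.9, 7.57 and 21.7 FPKM in APAP livers (limma adjusted p = 0.00796), and Tef, a related factor, at 35.3, 13.6 and 25.7 FPKM (adjusted p = 0.00924). Clock itself was level at 5.66, 5.13 and 5.49 FPKM (adjusted p = 0.884). Of 17 tested clock genes 5 passed (29.4 percent, against 20.8 percent of all genes), 4 with liver 1 highest and liver 2 lowest. Bhlhe40, a clock repressor, passed in the reverse order, at 28.7, 73.96 and 30.2 FPKM (adjusted p = 0.0456), a call lost in 13 of 23 alternative settings. Of the list, 0, 1 and 6 passed without APAP liver 1, 2 or 3. Igfbp1, a hepatocyte protein that binds insulin-like growth factors, was listed at 98.6, 532 and 197 FPKM (adjusted p = 0.00549). Igfals, which stabilizes these factors in blood, was listed at 30.1, 12.9 and 12.7 FPKM (adjusted p = 0.00482), with livers 2 and 3 alike. The metallothionein genes Mt1 and Mt2, which bind zinc, had the same order of livers as the actins but did not pass (adjusted p = 0.106 and 0.0926), and varied among vehicle livers too (SD 0.654 and 0.721). Iigp1, an interferon-induced GTPase, was listed at 77.02, 204.7 and 159 FPKM (adjusted p = 0.00297), while 20 of the 22 tested interferon response genes did not pass.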
